A study of Mus musculus with 4 samples.

Results

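The genes described here are 9 markers of the ventral telencephalon and of GABAergic cells: Gsx2, Dlx1, Dlx2, Dlx5, Dlx6, Lhx6, Isl1, Gad1 and Gad2. They were taken by name, out of 22414 gene IDs in the deposited tables. All 9 were listed for all 4 libraries and passed the filter on low counts. The samples were mouse brains at embryonic day 13 on a C57BL/6 background. The Wt1_CKO brains (genotype label Wt1CKO) carry a conditional knockout of Wt1, a zinc finger transcription factor gene, and the Wt1_flfl brains (labelled WT, with Wt1 fl/fl alleles) carry floxed Wt1. Neither the Cre line nor the dissected part of the brain is given in the labels. Each genotype had 2 libraries, numbered 1 and 2, and the number is not stated to be a litter, a day or a batch. Wt1_CKO was compared with Wt1_flfl, and replicate 2 with replicate 1.

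The ganglionic eminences are the ventral proliferative zones of the embryonic telencephalon. Their progenitors express Gsx2, then the Dlx homeobox genes, and give rise to striatal projection neurons and to interneurons that migrate into the cortex, which make GABA with glutamate decarboxylases. Dlx1 and Dlx2 lie next to each other in the mouse genome, as do Dlx5 and Dlx6, and each pair shares enhancers. These genes are also used outside the telencephalon, for example in the prethalamus and hypothalamus.

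The libraries held 16219310 to 17704698 listed counts. Lhx2, a LIM homeobox gene of forebrain progenitors, stood at 260.2 to 419.5 CPM (counts relative to the TMM-scaled library size, the unit of all levels here). Xist, the X-inactivation RNA of females, had 4 counts in Wt1_CKO replicate 1 and 13086 to 16472 in the other libraries. A ribosomal RNA row (CT010467.1) had 74251 counts in Wt1_flfl replicate 1 and 3058 to 7902 elsewhere. Genotypes are as labelled, with no check against the Wt1 transcript, which was not analysed here. The labels do not say if each sample was 1 animal or a pool, and the p-values reflect the spread of these 4 samples alone.

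Promoter sequence is shown for Gsx2 and Isl1, the 2 genes with the largest fitted difference between genotypes. Both are given from RefSeq (GRCm38.p6) as the 250 bases before the transcription start, 5′ to 3′ on the gene's strand. The Gsx2 window is chr5:75075351-75075600 on the plus strand, and the Isl1 window is chr13:116309689-116309938 on the minus strand. Capitals mark TAAT or its reverse complement ATTA, the core letters that homeodomain proteins such as DLX and GSX bind.
Gsx2: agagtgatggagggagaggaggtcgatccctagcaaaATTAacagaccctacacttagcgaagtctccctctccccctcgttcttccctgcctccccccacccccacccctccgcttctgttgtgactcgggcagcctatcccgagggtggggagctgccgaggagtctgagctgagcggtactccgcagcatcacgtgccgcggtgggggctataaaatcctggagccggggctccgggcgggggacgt
Isl1: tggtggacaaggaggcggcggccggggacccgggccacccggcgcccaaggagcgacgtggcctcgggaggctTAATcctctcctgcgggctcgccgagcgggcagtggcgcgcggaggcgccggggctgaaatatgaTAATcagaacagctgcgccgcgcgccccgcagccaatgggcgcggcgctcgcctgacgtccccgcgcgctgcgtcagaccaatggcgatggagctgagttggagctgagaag
The Gsx2 window held 1 such core, 213 bases upstream of the start, and the Isl1 window held 2, at 177 and 112 bases upstream. RefSeq windows were found for 7 of the 9 genes, all but Dlx5 and Dlx6. These genes had 9 windows, of which 4 held at least 1 core, each from another gene, and 54.9% of all 32851 windows of the same length held one. The longer palindrome TAATTA stood in 0 of the 9 windows of these genes and in 4.84% of all windows. These matches describe the letters only.

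Of the 9 genes, 0 passed the test between Wt1_CKO and Wt1_flfl brains, where 0.00628% of genes tested did. Dlx2 and Dlx6 were 1.54-fold higher in replicate 2 than in replicate 1 brains, where 0.885% of genes tested passed in that direction. Both were close to the threshold of 0.05, with edgeR adjusted p of 0.0492 for Dlx2 and 0.0467 for Dlx6. Wt1_CKO replicate 1 had the lowest CPM of the 4 libraries for all 9 genes, which was so for 26.2% of the 15933 genes tested. Wt1_flfl replicate 2 had the highest CPM for 8 of the 9, with Gad1 the exception, and for 26.9% of genes tested. In bulk RNA, fewer cells of a type and less RNA per cell cannot be told apart.

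**Figure D1:**
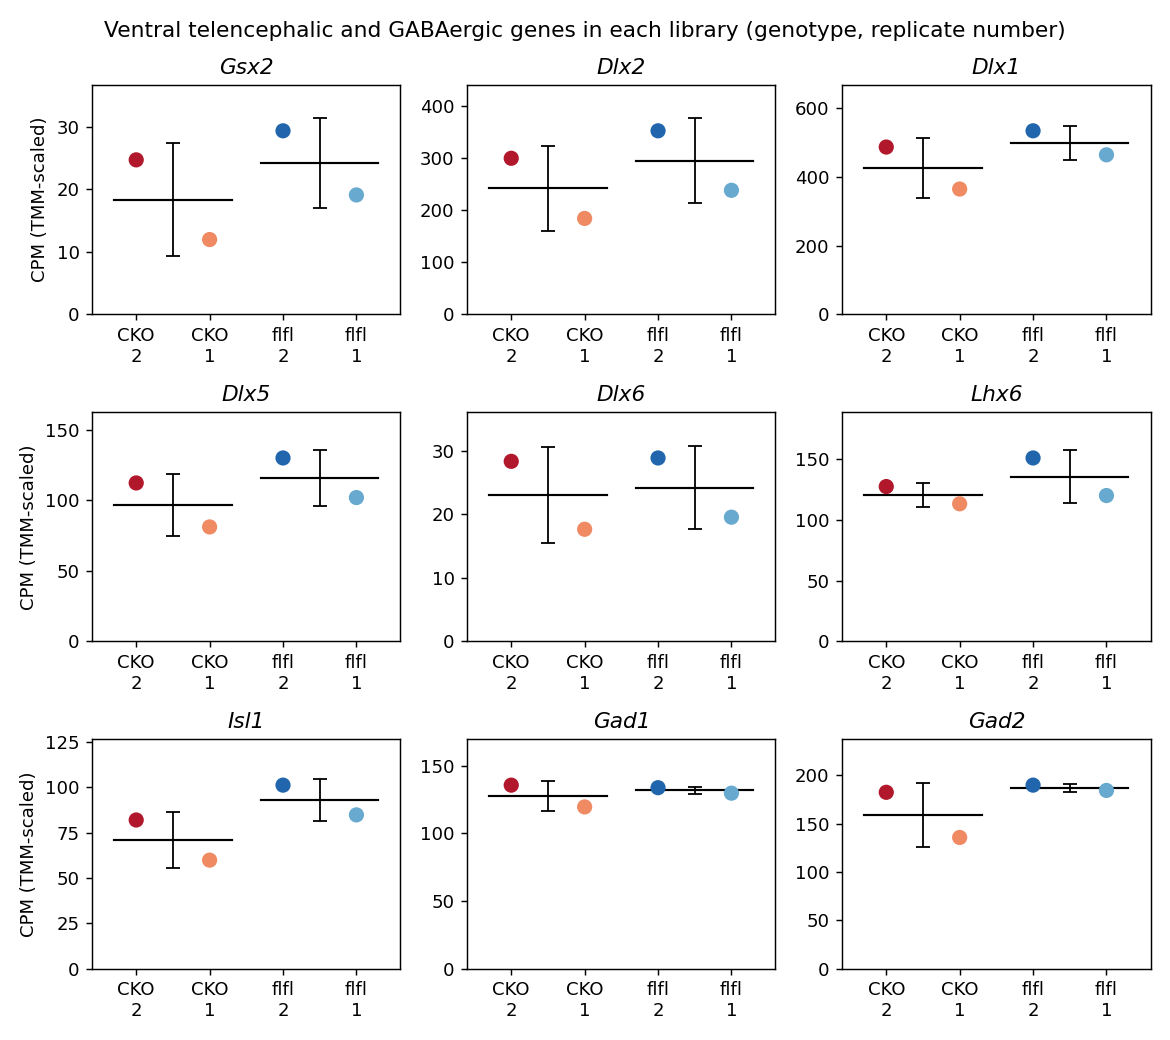
CPM of each gene in the 4 libraries, in the order Wt1_CKO replicates 2 and 1 and Wt1_flfl replicates 2 and 1, with the axis starting at 0; horizontal lines are genotype means and bars the SD over n = 2. Wt1_CKO replicate 1 is the lowest point in each of the 9 panels.

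Gsx2 (ENSMUSG00000035946, chromosome 5, 75075601 to 75077893, GRCm38) encodes a homeobox factor of ganglionic eminence progenitors. It had 24.7 and 11.97 CPM in Wt1_CKO replicates 2 and 1, and 29.4 and 19.1 CPM in Wt1_flfl replicates 2 and 1, from 213 to 503 counts. Both replicate 2 libraries were above both replicate 1 libraries, and the genotypes overlapped. Its log2 fold change between genotypes was -0.40 (SE 0.605), with an edgeR adjusted p of 1. Between replicate numbers it was 0.80 (SE 0.357), the largest of the 9 genes, with an edgeR adjusted p of 0.0863 that missed the threshold of 0.05.

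Dlx2 and Dlx1 encode homeobox factors that act in ganglionic eminence progenitors and their first neurons. Dlx2 (ENSMUSG00000023391, chromosome 2, 71543408 to 71546754) had 299 and 184 CPM in Wt1_CKO replicates 2 and 1, and 352 and 238 CPM in Wt1_flfl replicates 2 and 1. Dlx1 (ENSMUSG00000041911, chromosome 2, 71528113 to 71533981) had 487 and 364 CPM in Wt1_CKO replicates 2 and 1, and 534 and 464 CPM in Wt1_flfl replicates 2 and 1. For both genes the replicate 2 libraries stood above the replicate 1 libraries and the genotypes overlapped. Dlx2 averaged 326 ± 37.3 CPM in replicate 2 and 211 ± 38.2 CPM in replicate 1 brains (SD, n = 2 each), a log2 fold change of 0.63 (SE 0.219) with an edgeR adjusted p of 0.0492. The Dlx1 log2 fold change between numbers was 0.30 (SE 0.187), with an edgeR adjusted p of 0.248.

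Dlx5 and Dlx6 encode homeobox factors that come on mainly as these cells leave the ventricular zone. Dlx5 (ENSMUSG00000029755, chromosome 6, 6877805 to 6882085) had 112 and 81.2 CPM in Wt1_CKO replicates 2 and 1, and 130 and 102 CPM in Wt1_flfl replicates 2 and 1. Dlx6 (ENSMUSG00000029754, chromosome 6, 6863334 to 6868568) had 28.3 and 17.7 CPM in Wt1_CKO replicates 2 and 1, and 28.9 and 19.6 CPM in Wt1_flfl replicates 2 and 1. Libraries with the same number were close for Dlx6 in both genotypes. Dlx6 averaged 28.6 ± 0.376 CPM in replicate 2 and 18.6 ± 1.35 CPM in replicate 1 brains (SD, n = 2 each), a log2 fold change of 0.62 (SE 0.0746) with an edgeR adjusted p of 0.0467. Dlx5 had a log2 fold change of 0.40 (SE 0.195) between numbers and an edgeR adjusted p of 0.132, which missed.

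Lhx6, a LIM homeobox gene of interneurons from the medial ganglionic eminence, and Isl1, a LIM homeobox gene of striatal and cholinergic neurons, mark neuronal lineages. Lhx6 (ENSMUSG00000026890, chromosome 2, 36081953 to 36105408) had 128 and 113 CPM in Wt1_CKO replicates 2 and 1, and 151 and 120 CPM in Wt1_flfl replicates 2 and 1. Isl1 (ENSMUSG00000042258, chromosome 13, 116298281 to 116309689) had 81.9 and 59.8 CPM in Wt1_CKO replicates 2 and 1, and 101 and 84.8 CPM in Wt1_flfl replicates 2 and 1. For Isl1 both Wt1_CKO libraries were below both Wt1_flfl libraries, by a narrow margin, and the replicate numbers overlapped. The Isl1 log2 fold change between genotypes was -0.39 (SE 0.260), with an unadjusted p of 0.0625, the smallest of the 9 genes, and an edgeR adjusted p of 1. With a library left out it ran from -0.64 (Wt1_CKO replicate 2 left out) to -0.18 (Wt1_CKO replicate 1 left out). Isl1 is also used by cranial motor and sensory neurons, for which a list of 11 markers was read, 7 of them in both tables. Their summed CPM was 23.4 and 24.9 in Wt1_CKO replicates 2 and 1, and 24.3 and 21.5 in Wt1_flfl replicates 2 and 1, most of it Neurog1, which dorsal telencephalic progenitors also express. Of the 5 genes of that list tested, 0 passed in either comparison.

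Gad1 and Gad2 encode the 2 glutamate decarboxylases that make GABA. Gad1 (ENSMUSG00000070880, chromosome 2, 70553072 to 70602014) had 136 and 120 CPM in Wt1_CKO replicates 2 and 1, and 134 and 130 CPM in Wt1_flfl replicates 2 and 1. Gad2 (ENSMUSG00000026787, chromosome 2, 22622205 to 22693874) had 182 and 136 CPM in Wt1_CKO replicates 2 and 1, and 190 and 184 CPM in Wt1_flfl replicates 2 and 1. Gad1 spanned a narrow range over the 4 libraries, and for Gad2 only Wt1_CKO replicate 1 stood apart. Their log2 fold changes between numbers were 0.11 (SE 0.0596) for Gad1 and 0.22 (SE 0.223) for Gad2, and neither passed. With a library left out that of Gad1 ran from 0.05 to 0.17 and that of Gad2 from 0.01 to 0.45, in both cases lowest with Wt1_CKO replicate 1 left out and highest with Wt1_flfl replicate 1 left out.

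Levels were set beside each other per kilobase of exon (all GENCODE vM21 exons of the gene, in CPM per kb; mean and SD over all 4 libraries). The order was Dlx2 at 94.0 ± 25.6, Dlx1 at 85.7 ± 13.2, Dlx5 at 47.0 ± 9.03, Gad2 at 29.5 ± 4.27, Lhx6 at 26.7 ± 3.42, Isl1 at 20.7 ± 4.29, Gad1 at 17.0 ± 0.940, Gsx2 at 12.8 ± 4.51 and Dlx6 at 9.94 ± 2.46 CPM per kb. Dlx2 and Dlx1, Gad2 and Lhx6, Isl1 and Gad1, Gad1 and Gsx2, and Gsx2 and Dlx6 were neighbours whose means differed by less than the larger of their SDs. The order of Dlx2 and Dlx1 changed with the number. Dlx2 was above Dlx1 in replicate 2, at 105 against 90.2 CPM per kb in Wt1_CKO and 123 against 98.9 in Wt1_flfl. In replicate 1 it was slightly below, at 64.4 against 67.5 in Wt1_CKO and 83.4 against 86.0 in Wt1_flfl.

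Between genotypes, 0 of the 9 genes passed edgeR's adjusted threshold, where 0.00628% of genes did. DESeq2 and limma-voom called 0 of the 9 as well, and 0 had an unadjusted edgeR p under 0.05, a cut that 1.56% of genes tested passed. All 9 fitted log2 fold changes were negative, from -0.40 for Gsx2 to -0.05 for Gad1, with a median of -0.23 against 0.01 over all genes tested. The values were lower in Wt1_CKO within both pairs of same-numbered libraries for 8 of the 9, and so were those of 25.9% of genes tested. Gad1 was the exception, at -0.12 in pair 1 and 0.02 in pair 2. Both Wt1_CKO libraries were below both Wt1_flfl libraries for Gad2 and Isl1, 2 of the 9, against 13.5% of genes tested. The size rested on single libraries: leaving out Wt1_CKO replicate 1 gave a median of -0.04, leaving out Wt1_flfl replicate 2 gave -0.06, and leaving out Wt1_CKO replicate 2 gave -0.46. Without Wt1_CKO replicate 1 the fitted values of Dlx2, Dlx6, Gsx2 and Gad1 were above 0. Those of Dlx2, Dlx6 and Lhx6 were above 0 without Wt1_flfl replicate 2. In simulated counts the smallest change tried was a log2 of 1, and 61.6% of such changes were recovered between genotypes. Whether changes as small as those fitted here would pass was not tested.

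The authors' deposited tables, which compare 1 library with 1 library, mark 0 of these 9 genes, where they mark 3.2% of the genes listed in pair 1 and 3.19% in pair 2. In the authors' deposited table of each pair, 6 of the 9 have an adjusted p under 0.05 without the mark. That cut takes in 23.3% of all genes in the authors' deposited table of pair 1 and 19.2% in that of pair 2. With 1 library a side such a p carries no spread between replicates, and nothing is read from these counts.

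**Figure D2:**
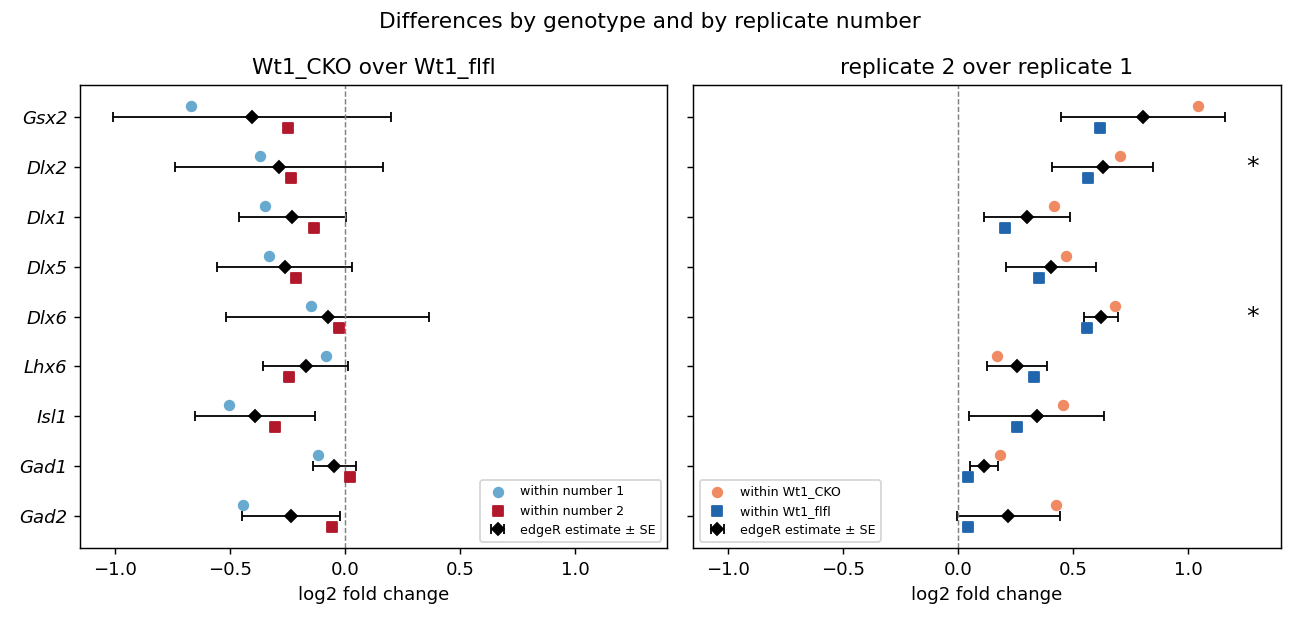
Log2 fold changes of the 9 genes, Wt1_CKO over Wt1_flfl on the left and replicate 2 over replicate 1 on the right; diamonds are edgeR estimates with the SE from the replicate SDs, circles and squares the values within 1 pair or 1 genotype, and asterisks an edgeR adjusted p under 0.05. On the left no gene passed, and on the right Dlx2 and Dlx6 did.

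Between replicate numbers, 2 of the 9 genes, Dlx2 and Dlx6, were higher in replicate 2, where 0.885% of all genes passed in that direction, 1.08% in the other and 1.96% in either. All 9 genes were higher in replicate 2 within both genotypes, as were 32.3% of genes tested, with 32.4% lower in both. The groups did not overlap for 7 of the 9, all but Gad2 and Isl1, and for 24.7% of genes tested in that direction and 25.0% in the other. The median log2 fold change of the 9 was 0.34, against -0.01 over all genes tested (2854 of the 15933 had an unadjusted p under 0.05, 6 of the 9 among them). Within Wt1_CKO brains the differences ran from 0.17 for Lhx6 to 1.04 for Gsx2, and within Wt1_flfl brains from 0.04 for Gad2 to 0.62 for Gsx2. These calls lie close to the threshold. Without Wt1_CKO replicate 1 none of the 9 passed and without Wt1_flfl replicate 2 only Dlx2 did; without Wt1_flfl replicate 1 Dlx2 and Gsx2 passed, and without Wt1_CKO replicate 2 Dlx2, Dlx5, Dlx6, Gsx2 and Isl1 did. The same 5 genes passed with genotype as a further term, where the adjusted p was 0.000188 for Dlx2, 0.00803 for Dlx6, 0.00193 for Gsx2, 0.00824 for Dlx5 and 0.0283 for Isl1.

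Other genes of ganglionic eminence progenitors were read from a list of 11, all tested, chosen with earlier results of these data known. Of these, 5 rose in replicate 2 and 0 fell, against 0.885% and 1.08% of genes tested, with a median log2 fold change of 0.64. Among them were the medial ganglionic eminence gene Nkx2-1 (1.15, SE 0.248, adjusted p 0.00873 with edgeR), the homeobox gene Nkx6-2 (1.26, SE 0.0670), the bHLH gene Olig2 (0.61, SE 0.198) and the Notch target Hes5 (1.05, SE 0.179). Nkx2-1 had 191 and 103 CPM in Wt1_CKO replicates 2 and 1, and 269.5 and 105 CPM in Wt1_flfl replicates 2 and 1. Hes5 is also expressed by progenitors outside the ventral telencephalon, and Nkx2-1 is also used in the hypothalamus. The prethalamus and hypothalamus list below likewise summed highest in Wt1_flfl replicate 2, at 262 CPM. The part of hypothalamic RNA in the Nkx2-1 difference was not tested. Leaving out Wt1_CKO replicate 1 gave 0 calls in this list, Wt1_flfl replicate 1 gave 2, Wt1_flfl replicate 2 gave 3 and Wt1_CKO replicate 2 gave 8. Between genotypes 0 of the 11 passed, with a median of -0.28, and Six3, Olig1 and Vax1 had the smallest unadjusted p.

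Markers of ventral neurons were read from another pair of lists. Of 18 genes of striatal and lateral ganglionic eminence neurons, 1 fell in replicate 2 and 0 rose, with a median log2 fold change of -0.26. It was Ppp1r1b, the phosphatase inhibitor of striatal projection neurons, at 10.4 and 17.8 CPM in Wt1_CKO replicates 2 and 1, and 7.60 and 17.7 CPM in Wt1_flfl replicates 2 and 1 (log2 fold change -0.98, SE 0.223, adjusted p 0.0327 with edgeR). Of 18 genes of the medial ganglionic eminence and migrating interneurons, 1 rose, Lhx8 (0.61, SE 0.150), a LIM homeobox gene of cholinergic neurons, and 1 fell, Zeb2 (-0.49, SE 0.0828), a zinc finger gene that cortical cells also express. The median of that list was -0.14. The neuropeptide gene Sst had the smallest unadjusted p of that list between genotypes, with 69.0 and 73.2 CPM in Wt1_CKO replicates 2 and 1, and 86.9 and 112 CPM in Wt1_flfl replicates 2 and 1. Its log2 fold change of -0.48 (SE 0.186) did not pass. Between genotypes 0 genes of either list passed, with medians of -0.08 for the striatal and -0.13 for the interneuron list.

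Of 6 genes of GABA release, uptake and breakdown 5 were tested, 0 passed in either comparison, and the median log2 fold change was 0.31 between numbers and -0.18 between genotypes. Slc32a1, the vesicular GABA transporter, had 49.8 and 38.8 CPM in Wt1_CKO replicates 2 and 1, and 53.6 and 47.4 CPM in Wt1_flfl replicates 2 and 1. Aldh5a1, of GABA breakdown, had 41.6 and 30.4 CPM in Wt1_CKO replicates 2 and 1, and 40.7 and 31.0 CPM in Wt1_flfl replicates 2 and 1, a log2 fold change of 0.42 (SE 0.0211) that did not pass (edgeR adjusted p 0.0789).

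The antisense RNAs of the Dlx loci were also measured. Dlx6os1 (166 and 115 CPM in Wt1_CKO replicates 2 and 1, and 152 and 130 CPM in Wt1_flfl replicates 2 and 1) had a log2 fold change of 0.38 (SE 0.110) between numbers. Dlx1as (13.7 and 9.16 CPM in Wt1_CKO replicates 2 and 1, and 14.5 and 6.85 CPM in Wt1_flfl replicates 2 and 1) had one of 0.81 (SE 0.211). Neither passed in either comparison. Whether the libraries kept strand is not given. Dlx1 shares 335 exon bases with Dlx1as and Dlx6 shares 104 with Dlx6os2 on the opposite strand. If strand was not kept, reads of these stretches cannot be told apart. Dlx3, a relative expressed mainly outside the brain, had 2 to 5 counts a library.

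**Figure D3:**
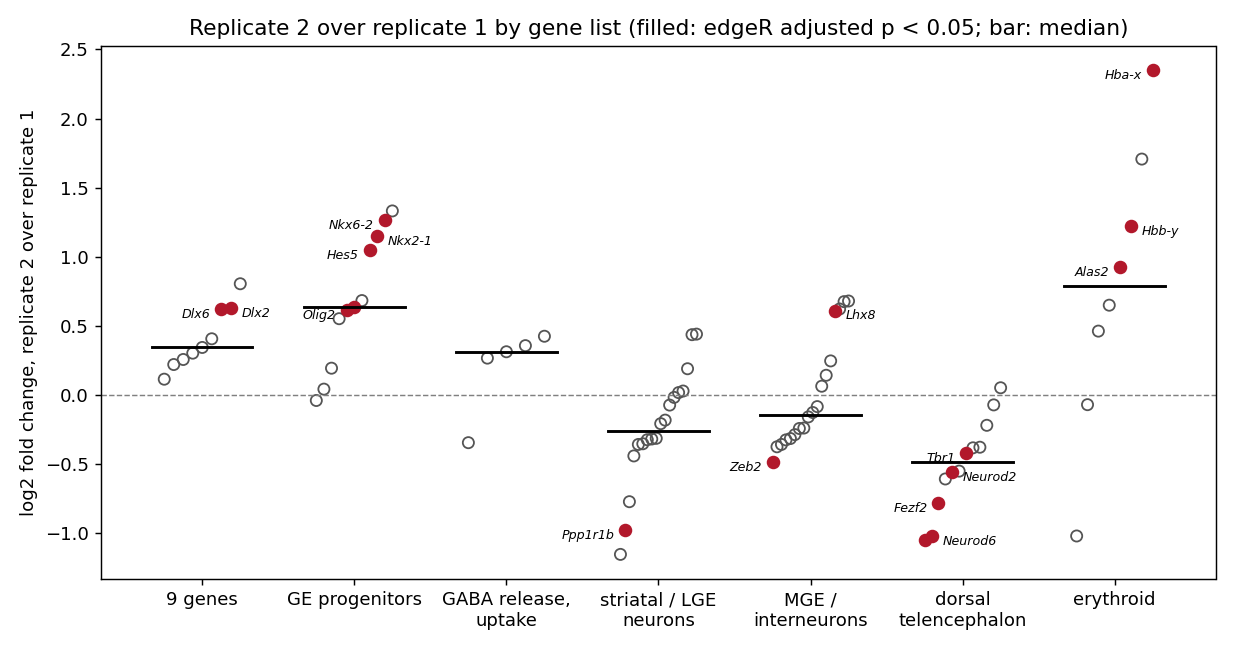
Log2 fold changes of replicate 2 over replicate 1 for the tested genes of 7 lists, 1 point a gene, filled where the edgeR adjusted p was under 0.05, with the genes given in the text named, with a bar at each list's median. The 9 genes and the ganglionic eminence (GE) progenitors lie mostly above 0, with medians of 0.34 and 0.64, and the dorsal telencephalon list mostly below, with a median of -0.49. The lists were chosen with earlier results of these data known.

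A list of 12 dorsal telencephalic genes was read, chosen with earlier results of these data known. Of these, 5 fell in replicate 2 and 0 rose, against 1.08% and 0.885% of genes tested, with a median log2 fold change of -0.49. Among them were the cortical neuron factors Neurod6 (-1.03, SE 0.212), Fezf2 (-0.78, SE 0.0987), Neurod2 (-0.56, SE 0.0921) and Tbr1 (-0.42, SE 0.0247). Neurod6 had 364 and 762 CPM in Wt1_CKO replicates 2 and 1, and 306 and 601 CPM in Wt1_flfl replicates 2 and 1. Wt1_CKO replicate 1, lowest for each of the 9 ventral genes, was highest for 11 of the 12 dorsal genes and for 28.7% of genes tested. Wt1_flfl replicate 2 was lowest for 11 of the 12 and for 26.9% of genes tested. Leaving out Wt1_CKO replicate 1 gave 2 calls in the dorsal list, Wt1_flfl replicate 1 gave 3, Wt1_flfl replicate 2 gave 4 and Wt1_CKO replicate 2 gave 7. Between genotypes 0 of the 12 passed, with a median of 0.17, and 11 were higher in Wt1_CKO in both pairs, where 27.0% of genes tested were.

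Shares of counts within a library need no scaling between libraries. Of the counts of the 9 genes and the 12 dorsal genes together, the 9 took 47.2% (95% Wilson interval 46.8 to 47.7) in Wt1_CKO replicate 2 and 31.0% (30.6 to 31.4) in Wt1_CKO replicate 1. They took 53.4% (53.0 to 53.8) in Wt1_flfl replicate 2 and 38.6% (38.2 to 39.0) in Wt1_flfl replicate 1. The share was higher in replicate 2 in both genotypes and lower in Wt1_CKO at both numbers. These intervals cover counting error only, and the dorsal list was chosen with earlier results of these data known. With 2 libraries a group the smallest p of an exact two-sided permutation test is 0.333, so no test was made.

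Dlx2 took 38.1% (37.3 to 38.9) of the Dlx1 and Dlx2 counts in Wt1_CKO replicate 2 and 33.5% (32.6 to 34.5) in Wt1_CKO replicate 1, against 39.7% (39.0 to 40.5) in Wt1_flfl replicate 2 and 33.9% (33.03 to 34.8) in Wt1_flfl replicate 1. The numbers separated and the genotypes did not. Dlx6 took 20.1% (18.6 to 21.8) of the Dlx5 and Dlx6 counts in Wt1_CKO replicate 2 and 17.9% (16.1 to 19.7) in Wt1_CKO replicate 1, against 18.2% (16.8 to 19.6) in Wt1_flfl replicate 2 and 16.1% (14.5 to 17.8) in Wt1_flfl replicate 1. Both replicate 2 shares of Dlx6 lay above both replicate 1 shares, but the intervals overlap between neighbouring libraries. Gad1 took 42.6% (41.3 to 44.0) of the Gad1 and Gad2 counts in Wt1_CKO replicate 2 and 46.8% (45.4 to 48.3) in Wt1_CKO replicate 1, against 41.3% in both Wt1_flfl libraries. Only Wt1_CKO replicate 1 stood outside the counting intervals of the other 3 libraries.

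**Figure D4:**
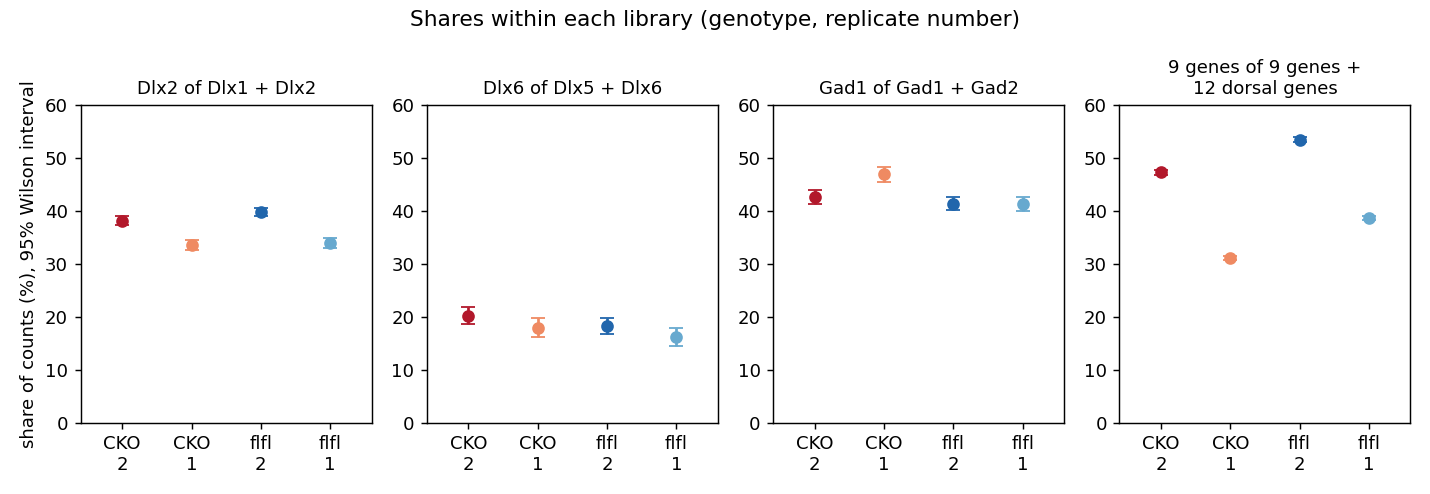
Share of counts in percent, with 95% Wilson intervals, for Dlx2 among Dlx1 and Dlx2, Dlx6 among Dlx5 and Dlx6, Gad1 among Gad1 and Gad2, and the 9 genes among themselves and 12 dorsal telencephalic genes, in each library. In every panel but that of Gad1 both replicate 2 points lie above both replicate 1 points, for Dlx6 with overlapping intervals.

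Markers of other cells were read beside these genes. Of 8 erythroid genes, 3 rose in replicate 2, the embryonic globins Hba-x (2.35, SE 0.373) and Hbb-y (1.22, SE 0.153) and the haem synthesis gene Alas2 (0.93, SE 0.0599). Of all genes tested, 0.885% passed in that direction. Within both genotypes 6 of the 8 were higher in replicate 2. The globin gene Hbb-bs was lower in both (-1.02, SE 0.585) and did not pass. The summed CPM of that list was 1728 and 1817 in the replicate 2 libraries of Wt1_CKO and Wt1_flfl, and 909 and 960 in their replicate 1 libraries, with no marker at 0. The prethalamus and hypothalamus list, with 10 of 13 genes in both tables, summed to 84.9 and 70.7 CPM in Wt1_CKO replicates 2 and 1, and 262 and 67.2 CPM in Wt1_flfl replicates 2 and 1. Some genes used in the hypothalamus, Nkx2-1 and Isl1 among them, are also markers above. With Wt1_flfl replicate 2 left out, the log2 fold change between numbers was 0.51 for Dlx2 and 0.61 for Dlx6. With Wt1_CKO replicate 1 left out it was 0.45 for Dlx2 and 0.55 for Dlx6. The part of the erythroid and hypothalamic signals, of the Xist difference and of the ribosomal RNA in these results was not tested.

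The pattern of the 9 genes was compared with that of 10131 other genes whose mean over the 4 libraries was at least 10 CPM. The measure was the root mean square distance between log2 CPM over the 4 libraries, centred on each gene's mean, and the mean of the 9 genes. The mean of the 9 was 0.13 and -0.38 in Wt1_CKO replicates 2 and 1, and 0.29 and -0.04 in Wt1_flfl replicates 2 and 1. The closest others were the pseudogene Rpl6l at a distance of 0.0270, the sulfotransferase gene Chst8 at 0.0298, the gap junction gene Gjd2 at 0.0316, the collagen gene Col5a1 at 0.0316 and the semaphorin gene Sema4a at 0.0330. Rpl6l may share reads with Rpl6 and is uncertain. Among the 9 themselves Dlx5 lay closest to the mean, at 0.0186, and Gsx2, with the widest swing, farthest, at 0.240. With 4 libraries such a likeness is a description.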

How the data were processed

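Oligo(dT)-enriched RNA of 4 brain samples was sequenced. The submitters' processing notes name the build mm9 and the tools HTSeq 0.6.0, TopHat2 2.0.12 and Bowtie2 2.2.3. Positions are given on GRCm38, since 92.1% of the gene IDs found in GENCODE vM21 had the same chromosome, start and end there, all 9 genes among them. The deposited counts are whole numbers per Ensembl gene, per the file headers. The deposited CPM columns are counts over a library total, with 0 entered as 0.5. The authors' deposited ratio, log2 ratio and p-values set 1 library against 1 library; the sources used here do not give the test.

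For the 19500 genes present in each table, counts went into edgeR 4.0.16 (R 4.3.3): filterByExpr with a minimum count of 10, TMM, a quasi-likelihood F test with 1 factor, and Benjamini-Hochberg adjustment over all 15933 genes tested, with a threshold of 0.05. Within-pair values subtract log2 CPM (prior count 2), and SEs were computed from both groups' SDs of log2 CPM. With n = 2 such an SE is imprecise and is not the spread edgeR tests. The tests were checked on simulated counts with log2 changes of 1 and 2. Between genotypes 61 of 99 genes changed by 1 were recovered, and 95 of 99 changed by 2, with 13 unchanged genes called. Between replicate numbers 76 of 100 and 94 of 99 were recovered, with 7 unchanged genes called. Smaller changes were not simulated, and the genotype differences fitted for the genes described here ran from -0.40 to -0.05. The genes and 17 lists were chosen with earlier results of these data known. From each list the genes with the smallest unadjusted p and those that passed could be named, and some of these are not reported here. Alternatives were another term in the model, leaving out each library, other scalings and filters, DESeq2 1.42.0, limma-voom of limma 3.58.1, genes of either table, and removing sex-linked, mitochondrial and haemoglobin genes.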

Additional observations from a re-analysis of the deposited data

How the results depend on the processing

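No alternative called any of the 9 genes between genotypes. The count over all genes was 1, and 42 with the replicate block, 5 with DESeq2, 0 without haemoglobin, mitochondrial and sex-linked genes, and 3 to 73 with a library left out. The deviations of same-numbered libraries from their genotype means had a correlation of 0.281 across 15933 genes. The authors' deposited tables set same-numbered libraries against each other, and the labels do not say what the number stands for, so whether it pairs the samples is unknown. With a library left out, the median log2 fold change of the 9 genes between genotypes ran from -0.46 to -0.0366. Those of Dlx2 ran from -0.68 to 0.0224, of Dlx6 from -0.46 to 0.23, of Gsx2 from -1.02 to 0.0271, of Gad1 from -0.14 to 0.0418 and of Lhx6 from -0.33 to 0.00355.

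Between replicate numbers 2 of the 9 passed, and 5 with the genotype term, 0 with no low-count filter (more genes tested) and 0 to 5 with a library left out. The count over all genes was 313, and 1138 with the genotype term, 197 with no low-count filter, 578 with DESeq2 and 71 to 940 with a library left out. The median of the 9 ran from 0.21 to 0.58 with a library left out, and the single genes from 0.14 to 0.48 for Dlx1, 0.45 to 0.82 for Dlx2, 0.25 to 0.58 for Dlx5, 0.55 to 0.69 for Dlx6, 0.50 to 1.17 for Gsx2, 0.13 to 0.37 for Lhx6 and 0.11 to 0.61 for Isl1. Dlx2 and Dlx6 passed under every scaling tried, with DESeq2 and with limma-voom. The progenitor list had 5 calls, 8 with the genotype term and 3 with limma-voom or no low-count filter, and the dorsal list 5 and, with the genotype term, 9. Other prior counts left the within-pair values of the 9 genes in place. Each of the 9 genes had at least 213 counts in every library. Where a library is left out, the lone library of its group is assumed to vary like the other group.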

Other observations

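Wt1_flfl replicate 2 carried more RNA of hypothalamic genes than the other 3 libraries. Otp, a homeobox gene of hypothalamic neurons, had 16.2 and 11.5 CPM in Wt1_CKO replicates 2 and 1, and 84.0 and 5.98 CPM in Wt1_flfl replicates 2 and 1. Nkx2-2, a homeobox gene of the ventral diencephalon, had 1 and 4 counts in Wt1_CKO replicates 2 and 1, and 160 and 10 counts in Wt1_flfl replicates 2 and 1. Six6 had 1 count in the second Wt1_CKO library and 131 in the second Wt1_flfl library, and was not analysed here in replicate 1. None of the 10 tested genes of the prethalamus and hypothalamus list passed in either comparison, with a median log2 fold change of 1.66 between numbers and -1.26 between genotypes.

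The remaining lists gave few calls. In the retina list 1 gene was tested, Rlbp1, which was lower in replicate 2 (log2 fold change -0.85, edgeR adjusted p 0.0206). No tested gene passed in either comparison in the lists of midbrain and hindbrain GABAergic neurons, thalamus and habenula, meninges and mesenchyme, endothelium, choroid plexus and microglia, nor in the list of the whole telencephalon, which held Lhx2 and Six3. In the thalamus and habenula list the Olig3 level, of a bHLH gene of thalamic progenitors, was 1.05 and 1.18 CPM in Wt1_CKO replicates 2 and 1, and 9.18 and 11.3 CPM in Wt1_flfl replicates 2 and 1. Its log2 fold change between genotypes was -3.19 (SE 0.170), and the edgeR adjusted p was 0.118. The summed CPM of that list was 76.2 and 66.7 in Wt1_CKO replicates 2 and 1, and 108 and 151 in Wt1_flfl replicates 2 and 1. The summed CPM of the midbrain and hindbrain list was 12.1 and 12.8 in Wt1_CKO replicates 2 and 1, and 26.2 and 16.3 in Wt1_flfl replicates 2 and 1.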
